A study of Mus musculus with 8 samples.

Results

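10 genes of the neuronal cytoskeleton were taken by name from a table of 33971 genes, and all 10 were present and passed the filter on low counts, which kept 19367 genes. They were *Dcx*, *Tubb3* and *Stmn2*, which young neurons switch on early, the neurofilament genes *Nefl*, *Nefm*, *Nefh* and *Ina*, the related filament gene *Prph*, and the microtubule-associated protein genes *Map2* and *Mapt*. RNA was measured by bulk poly-A sequencing of whole brains from wild-type (WT) mouse embryos at E14.5 (embryonic day, mid-gestation). The dams, also WT, ate either a choline-deficient diet (CDD, 4 brains) or normal chow (ND, 4 brains), and the labels give both groups the same genotype and age. The methods place the start of CDD at the mating day, whereas other material of the study places it before mating. The number of dams and litters was not given, so p-values measure the spread between these brains and cannot separate diet from dam. Each library held between 31770217 and 43121170 counts. The brain regulators *Sox2* (134 to 152 CPM, the count scaled to library size) and *Neurod1* (46.5 to 54.1 CPM), and the neuronal RNA-binding gene *Elavl3* (634 to 757 CPM), were detected in all 8 brains. The replicate 2 brain of the CDD group stood apart in 1 respect that touches the results: 17 of 17 listed *Hox* genes, which mark the hindbrain and spinal cord, were highest in it, with a summed level of 140.8 CPM against 0.09 to 2.87 CPM in the other 7 brains. Member values that rest on that brain are given with and without it. CDD replicate 4 differed in another way: 53.1% of tested genes of at least 10 kb were highest in it, against 21.7% of all tested genes.

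Microtubules are hollow polymers of alpha- and beta-tubulin that carry cargo along axons and dendrites. TUBB3 is the neuronal beta-tubulin, doublecortin (DCX) stabilizes microtubules in migrating neurons, and stathmin-2 (STMN2) binds free tubulin in growth cones. MAP2 lies mainly along dendrites and tau, the product of *Mapt*, mainly along axons. Neurofilaments are the intermediate filaments of neurons: the light (NEFL), medium (NEFM) and heavy (NEFH) chains co-assemble with alpha-internexin (INA), they set the calibre of axons, and *Ina* precedes *Nefh* in development. Peripherin, from *Prph*, is typical of neurons whose axons run outside the brain. In bulk tissue, fewer cells of a type and less RNA per cell cannot be told apart.

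The members spanned a 567-fold range of level when CPM were divided by the listed gene length in kilobases. For *Nefl* and *Nefm* that length (3380 and 5782 bases) equals the exon bases in the GENCODE M21 annotation rather than the span of the gene. *Tubb3* was highest, at 1001 ± 39.1 CPM per kb (mean ± SD, n = 8 brains). *Ina* followed at 209 CPM per kb and *Mapt* at 174 CPM per kb. *Dcx* (125 CPM per kb) and *Stmn2* (124 CPM per kb) were neighbours whose ranges over the brains overlapped. *Map2* lay at 83.2 CPM per kb. The neurofilament triplet was far lower: *Nefl* at 26.7 CPM per kb and *Nefm* at 21.0 CPM per kb, again with overlapping ranges, and *Nefh* at 1.77 CPM per kb. *Prph* stood at 2.73 CPM per kb and overlapped *Nefh*. Without CDD replicate 2, *Prph* was at 1.87 CPM per kb, *Nefh* at 1.63 CPM per kb, *Nefl* at 24.6 CPM per kb and *Nefm* at 19.2 CPM per kb (means, n = 7 brains). Every other pair of neighbours in this order was separated in all 8 brains. At this age the early genes and the precocious filament gene *Ina* were abundant, and *Nefh* and *Prph*, which were not separated, were the least abundant of the 10.

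**Figure D1:**
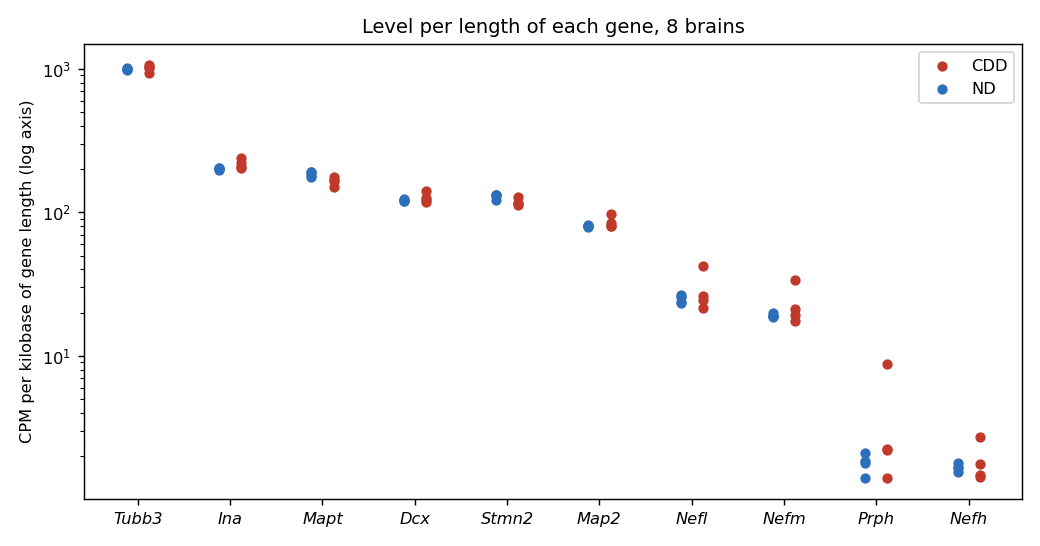
Level of each of the 10 genes in CPM per kilobase of gene length (log axis), with each brain as a point, CDD in red and ND in blue. *Tubb3* lies at the top (mean 1001 CPM per kb) *Nefh* and *Prph* at the bottom (means 1.77 and 2.73 CPM per kb), and only *Dcx* with *Stmn2*, *Nefl* with *Nefm*, and *Prph* with *Nefh* overlap.

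The start-site regions of 3 members at the extremes of this order are shown, since *Tubb3* and *Ina* were the highest per length and *Prph* among the lowest. The windows are from RefSeq (GRCm38.p6) and run from 250 bases before to 50 bases after the annotated start, 300 bases in all, 5′ to 3′ on the gene's strand. 5 of the 10 members had a window in the table (*Dcx*, *Tubb3*, *Map2*, *Ina* and *Prph*). Capitals mark TATAAA and CANNTG. These and the motif GGGCGG were searched on both strands, and positions count along the printed strand.
Prph, chr15:99054924-99055223, plus strand: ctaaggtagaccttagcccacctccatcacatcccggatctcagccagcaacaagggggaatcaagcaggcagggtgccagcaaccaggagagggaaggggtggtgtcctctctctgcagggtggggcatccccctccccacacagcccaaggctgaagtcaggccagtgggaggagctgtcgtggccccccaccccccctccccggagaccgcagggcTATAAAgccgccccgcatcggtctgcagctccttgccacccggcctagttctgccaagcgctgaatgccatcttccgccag
Ina, chr19:47014431-47014730, plus strand: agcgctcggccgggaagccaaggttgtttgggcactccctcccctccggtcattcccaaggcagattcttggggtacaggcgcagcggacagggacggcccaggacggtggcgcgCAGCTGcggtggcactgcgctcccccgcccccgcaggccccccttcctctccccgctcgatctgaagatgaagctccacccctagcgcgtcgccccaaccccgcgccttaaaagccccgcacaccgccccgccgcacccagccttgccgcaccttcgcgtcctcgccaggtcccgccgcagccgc
Tubb3, chr8:123411303-123411602, plus strand: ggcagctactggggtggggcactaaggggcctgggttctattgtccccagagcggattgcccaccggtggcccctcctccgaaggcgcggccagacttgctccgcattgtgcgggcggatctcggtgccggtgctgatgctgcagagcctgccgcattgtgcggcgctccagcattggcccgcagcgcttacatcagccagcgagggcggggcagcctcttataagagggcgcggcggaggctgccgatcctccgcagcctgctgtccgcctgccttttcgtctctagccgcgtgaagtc
The *Prph* window, with 64.7% G and C, held TATAAA with its first base at position -31 from the start and GGGCGG at -24. GGGCGG also occurred on the printed strand at -138 and -46 in the *Tubb3* window. In the *Ina* window it occurred on the opposite strand, at -111 and -12. TATAAA was in 13.6% of 32851 promoter windows of the same length, and GGGCGG in 35.7%. The *Ina* window (71.7% G and C) held CANNTG at -135, a motif in 72.3% of windows, and the *Tubb3* window (67.3% G and C) held neither capitalized motif. A match is a run of letters and not evidence of binding.

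The main comparison asked whether maternal choline deficiency changed the RNA of these genes. None of the 10 genes passed the test: edgeR's quasi-likelihood test called 0 of 10 at an adjusted p of 0.05, against 8.83% of all 19367 tested genes (4.24% higher and 4.59% lower in CDD). At an unadjusted p under 0.05, 2 of 10 genes passed (*Stmn2* and *Mapt*), against 23.9% of all genes. DESeq2 called the same 2 genes, against 13.9% of the genes to which it gave an adjusted p, and limma-voom called *Mapt* alone, against 8.41% of all genes. The values of the 2 diets overlapped for all 10 members, whereas 15.0% of all tested genes showed no overlap. The median log2 fold change, CDD over ND, was 0.10 over the 10 genes and -0.0038 over all tested genes. Without CDD replicate 2, the median of the 10 was 0.0058, and edgeR called 2 of 10 (*Stmn2* and *Mapt*, both lower), against 7.14% of the genes tested in that fit (3.99% lower).

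**Figure D2:**
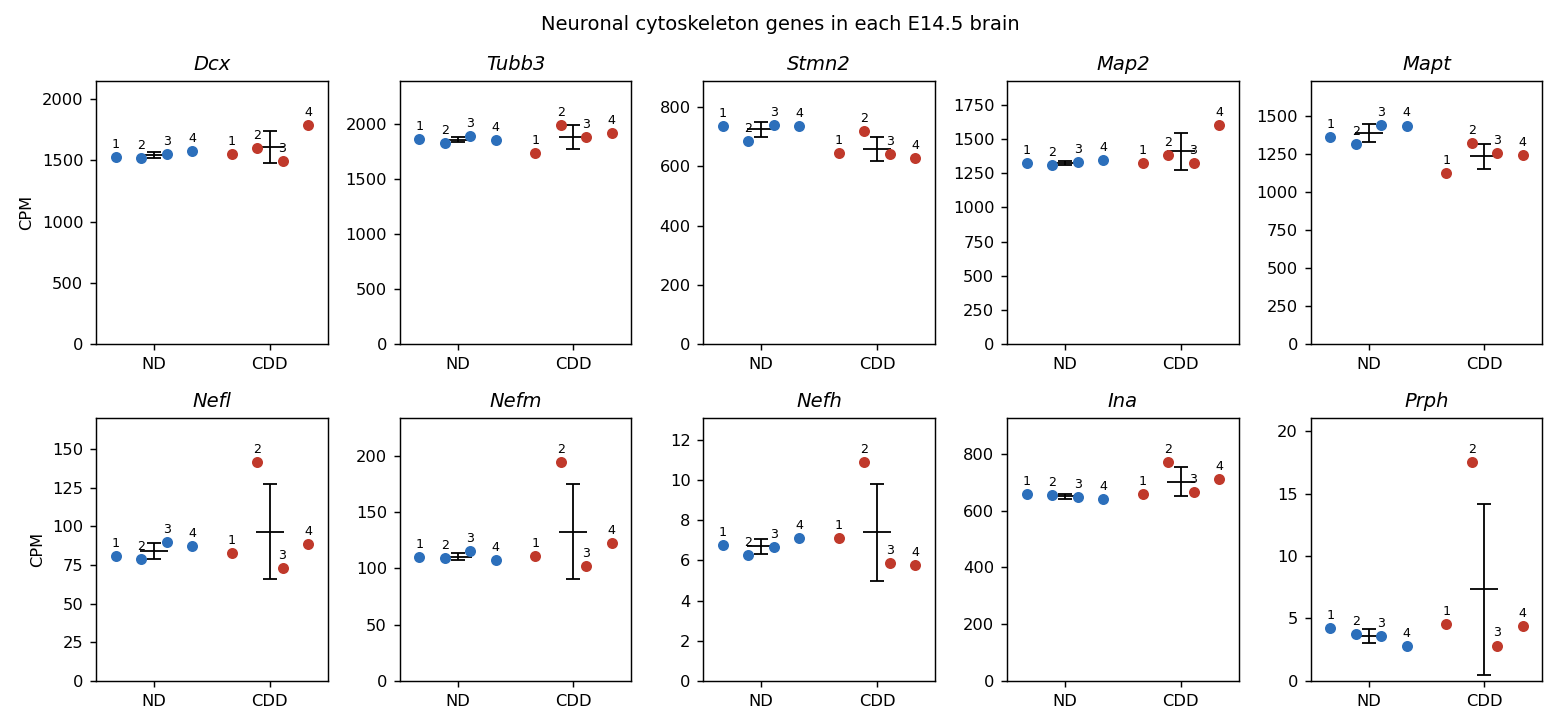
CPM of the 10 genes in each brain, 1 panel per gene and each axis with its own scale. Points are brains (ND blue, CDD red), numbered by replicate, and the black mark is the mean ± SD of the 4 brains of a diet. CDD replicate 2 is the highest point for 6 of the 10 genes and stands clear of all others for *Nefl*, *Nefm*, *Nefh* and *Prph*.

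The 3 genes of the neurofilament triplet shared 1 high brain and differed in the order of the others. *Nefl*, the light chain, measured 82.6, 142, 73.3 and 88.4 CPM in CDD replicates 1 to 4, and 80.6, 79.2, 89.7 and 87.1 CPM in ND replicates 1 to 4. *Nefm*, the medium chain, measured 111, 195, 102 and 123 CPM in CDD and 110, 109, 115 and 107 CPM in ND. *Nefh*, the heavy chain of mature axons, measured 7.09, 10.9, 5.88 and 5.76 CPM in CDD and 6.76, 6.25, 6.65 and 7.13 CPM in ND. In each gene CDD replicate 2 was the highest of the 8 brains, and the other 3 CDD brains lay around the ND values. Of those, CDD replicate 4 was the next highest brain for *Nefm* and the lowest for *Nefh*. CDD replicate 2 exceeded the median of the other 7 brains 1.72-fold for *Nefl*, 1.77-fold for *Nefm* and 1.64-fold for *Nefh*. It exceeded the next-highest brain by over 1.5 times for 4 of the 10 members (the triplet and *Prph*), against 0.356% of all tested genes. The triplet lay just above that cutoff, at 1.58-fold for *Nefl*, 1.59-fold for *Nefm* and 1.53-fold for *Nefh*. The brain was singled out in these same data, so the share describes the values and carries no test.

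The fitted log2 fold change of *Nefl* was 0.20 ± 0.22 (SE, edgeR adjusted p = 0.661), and without CDD replicate 2 it was -0.047 ± 0.063 (adjusted p = 0.725). For *Nefm* it was 0.26 ± 0.22 (edgeR adjusted p = 0.531), and 0.021 ± 0.056 without that brain (adjusted p = 0.874). For *Nefh* it was 0.14 ± 0.18 (edgeR adjusted p = 0.688), and -0.10 ± 0.11 without it (adjusted p = 0.638). The SE fell in each case when the brain was left out, and the sign turned for *Nefl* and *Nefh*.

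*Nefl* and *Nefm* are neighbours on chromosome 14 on opposite strands, and in the deposited positions the span of *Nefl* (68321312 to 68326544, plus strand) lay within that of *Nefm* (68320039 to 68362295, minus strand). The genome build of these positions was not given in the sources used here. In GENCODE M21 the exons of the 2 genes share 1108 bases. The strand setting of the counting was not stated, so how reads from the shared stretch were assigned is not known. The part of that stretch in the similar course of the 2 genes was not tested. Their ratio per kilobase, *Nefm* over *Nefl*, ranged from 0.719 to 0.812 over the 8 brains.

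*Prph* and *Ina* were also highest in CDD replicate 2. *Prph* measured 4.53, 17.6, 2.83 and 4.43 CPM in CDD and 4.24, 3.72, 3.59 and 2.81 CPM in ND, so that 1 brain lay 4.72-fold above the median of the other 7 and those 7 spanned 2.81 to 4.53 CPM. Its log2 fold change was 1.02 ± 0.65 (SE, edgeR adjusted p = 0.412) with all brains and 0.12 ± 0.18 (adjusted p = 0.745) without CDD replicate 2. The deposited span of *Prph* was 98953055 to 98956859 on chromosome 15, plus strand. Its start-site window above (GRCm38.p6) lies outside this span, so deposited positions and window positions cannot be combined. *Ina*, whose span overlaps the antisense gene *Nt5c2* by 456 bases, measured 659, 773, 666 and 712 CPM in CDD and 659, 655, 647 and 639 CPM in ND. The excess in CDD replicate 2 was smaller here, at 1.17-fold of the median of the others, and CDD replicate 1 fell within the ND range. The log2 fold change of *Ina* was 0.11 ± 0.054 (SE, edgeR adjusted p = 0.214), and 0.064 ± 0.051 (adjusted p = 0.508) without that brain. The ratio of *Ina* to *Nefl*, per kilobase, was 5.68 in CDD replicate 2 and 7.53 to 9.47 in the other brains, so the filament genes were not raised by a common factor in that brain.

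CDD replicate 2 also held more RNA of genes that mark neurons of the hindbrain, cord and ganglia. Over the 10 listed motor neuron genes, the summed level was 86.6 CPM in it and 62.5 to 69.2 CPM in the other 7 brains, and 8 of 10 were highest in it. *Slc18a3*, the vesicular acetylcholine transporter, was at 5.51 CPM in it against 0.906 to 2.08 CPM. Other listed genes did not follow. *Isl1*, which made up most of the sum in the other 7 brains, was lowest in CDD replicate 2 (40.3 CPM against 41.3 to 47.1 CPM). *Mnx1*, a regulator of somatic motor neurons, was near 0 in all brains (0.203 CPM in CDD replicate 2). Over 9 sensory ganglion genes the sum was 112.8 CPM in CDD replicate 2 and 78.6 to 89.7 CPM elsewhere, and 5 of 9 were highest in it, among them *Sncg* (13.0 CPM against 3.41 to 5.77 CPM). For comparison, 11.5% of all tested genes were highest in that brain. The part that these cells or regions play in the neurofilament and *Prph* values was not tested. edgeR called 0 of the 8 tested motor neuron genes and 0 of the 9 sensory genes with all brains, beside 8.83% of all genes. Without CDD replicate 2 it called 0 and 1 (lower), beside 7.14% of all genes.

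**Figure D3:**
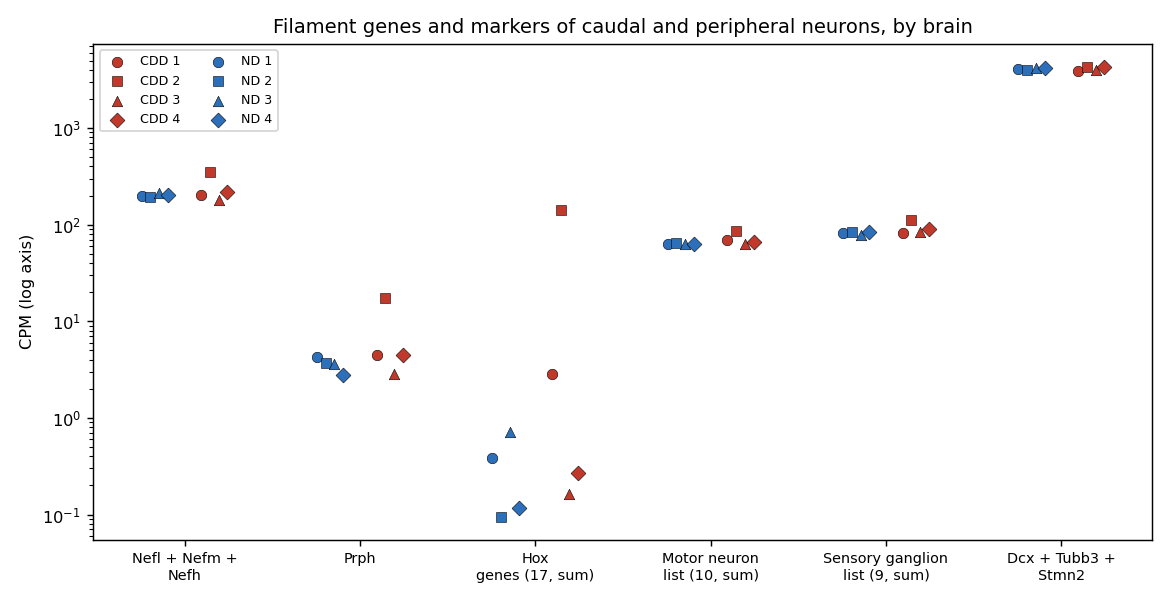
CPM (log axis) of the summed neurofilament triplet, *Prph*, the summed *Hox*, motor neuron and sensory ganglion lists, and the summed early genes, with ND brains in blue, CDD brains in red and replicates by symbol. CDD replicate 2 (red square) is the highest brain for every set but the early genes, with summed *Hox* RNA at 140.8 CPM against at most 2.87 CPM elsewhere.

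The early neuronal genes differed little, apart from lower *Stmn2* values. *Dcx* measured 1552, 1598, 1494 and 1789 CPM in CDD and 1527, 1517, 1550 and 1576 CPM in ND, for a log2 fold change of 0.060 ± 0.055 (SE, edgeR adjusted p = 0.552). *Tubb3* measured 1738, 1993, 1880 and 1916 CPM in CDD and 1863, 1828, 1889 and 1858 CPM in ND, for a log2 fold change of 0.017 ± 0.050 (SE, edgeR adjusted p = 0.879). The CDD values of both genes lay on either side of the ND values. The sign for *Tubb3* turned without CDD replicate 2 (-0.0098), and *Dcx* moved to 0.0043 when CDD replicate 4, its highest brain, was left out.

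*Stmn2* (ENSMUSG00000027500, chromosome 3, 8574420 to 8626666, plus strand, as deposited) measured 646, 719, 642 and 627 CPM in CDD and 737, 686, 740 and 738 CPM in ND. The diets overlapped in 1 brain of each: CDD replicate 2 lay above ND replicate 2, and the other 3 CDD brains lay below all ND brains. The log2 fold change was -0.14 ± 0.053 (SE, edgeR adjusted p = 0.108), and without CDD replicate 2 it was -0.18 ± 0.051 (adjusted p = 0.0371). DESeq2 on all 8 brains gave an adjusted p of 0.0484. The adjusted p passed 0.05 in 2 of 17 alternatives and ranged from 0.0371 to 0.312, so the lower level did not hold as a call.

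Of the 2 microtubule-associated protein genes, *Mapt* was lower in CDD in the same way as *Stmn2*. *Mapt* (ENSMUSG00000018411, chromosome 11, 104122216 to 104222916, plus strand, as deposited) measured 1127, 1323, 1255 and 1243 CPM in CDD and 1363, 1317, 1443 and 1439 CPM in ND, so CDD replicate 2 exceeded ND replicate 2 and no other CDD value reached the ND range. Its log2 fold change was -0.17 ± 0.055 (SE, edgeR adjusted p = 0.0600). Without CDD replicate 2 it was -0.20 ± 0.056 (edgeR adjusted p = 0.0373). Over 17 alternatives the value stayed below 0, from -0.20 to -0.12, with adjusted p from 0.0220 to 0.251, and 8 of the 17 passed 0.05.

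*Map2* measured 1326, 1385, 1325 and 1604 CPM in CDD and 1323, 1308, 1330 and 1346 CPM in ND. Only CDD replicate 4 lay far from the rest, and the log2 fold change was 0.088 ± 0.058 (SE, edgeR adjusted p = 0.387) with all brains and 0.019 without CDD replicate 4. By listed length, though not by span, *Map2* and *Dcx* (16456 and 12647 bases) are the longest of the 10 genes, and both were highest in that brain. Among 1514 tested genes of at least 10 kb, 53.1% were highest in CDD replicate 4, against 21.7% of all tested genes and 11.4% of those under 3 kb. The part of gene length in these values was not tested beyond a fit with a length term, which gave 0.057 for *Map2*.

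**Figure D4:**
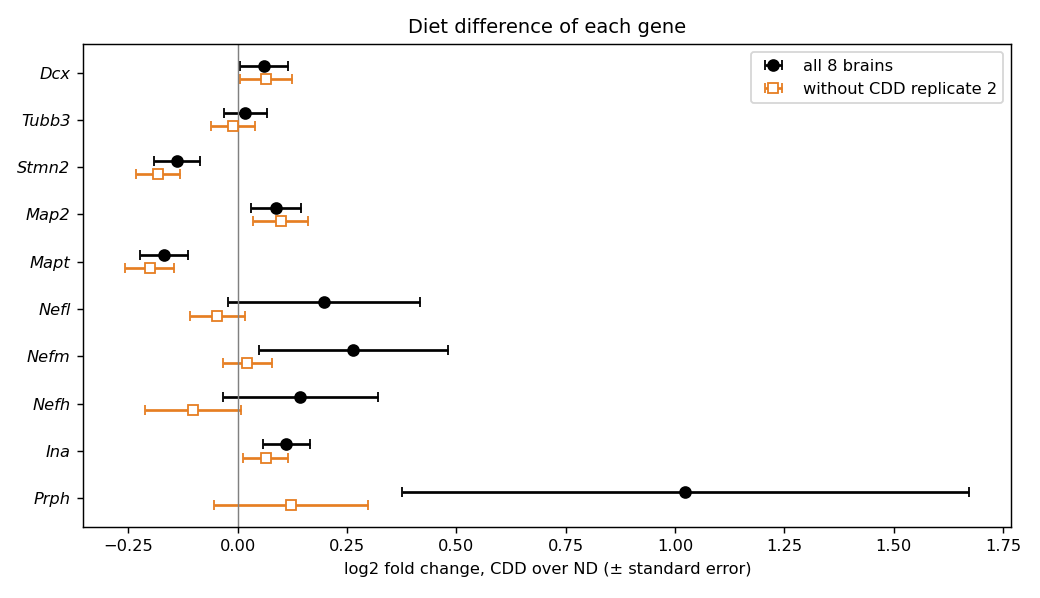
Log2 fold change (CDD over ND, edgeR) of the 10 genes with its SE, from all 8 brains and without CDD replicate 2. Leaving that brain out moves *Prph* from 1.02 to 0.12 and the triplet to between -0.10 and 0.021, while *Stmn2* and *Mapt* move further below 0.

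The contrast of late with early neuronal genes was taken within each brain as the mean log2 CPM of *Nefl*, *Nefm* and *Nefh* minus that of *Dcx*, *Tubb3* and *Stmn2*. It was -4.90, -4.29, -5.10 and -5.02 in CDD replicates 1 to 4, and -5.03, -5.03, -4.98 and -4.99 in the ND replicates. The CDD mean was -4.83 ± 0.37 (SD, n = 4) and the ND mean -5.01 ± 0.026 (SD, n = 4), a difference of 0.18 that was smaller than the CDD spread. Without CDD replicate 2 the CDD mean was -5.01 ± 0.10 (SD, n = 3), a difference of -0.00033. The late genes alone averaged 5.47 ± 0.41 in CDD and 5.31 ± 0.052 in ND on the log2 CPM scale, and the early genes 10.30 ± 0.064 and 10.32 ± 0.030 (SD, n = 4 each). The balance of late to early genes therefore differed between the diets through 1 brain.

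Within the early and microtubule groups, 2 ratios separated the diets in all brains. They were chosen from 5 ratios after their values were seen and carry no test. Each holds *Mapt* or *Stmn2*, so in part they restate the lower CDD values of those genes. *Map2* over *Mapt*, per kilobase, was 0.538, 0.479, 0.483 and 0.590 in CDD and 0.444, 0.455, 0.422 and 0.428 in ND. It was highest in CDD replicate 4, as were 53.1% of genes of at least 10 kb, and the part of length in this ratio was not tested. *Stmn2* over *Tubb3* was 0.124, 0.120, 0.114 and 0.109 in CDD and 0.132, 0.125, 0.131 and 0.132 in ND. For *Stmn2* over *Tubb3* the nearest brains of the 2 diets, CDD replicate 1 and ND replicate 2, lay close together.

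The genes whose values over the 8 brains lay closest to the triplet mean were *Fgl2*, *Gpr157* and *Spon1*, with root mean square differences of 0.0764, 0.0768 and 0.0785 in log2 CPM. The median over 15878 genes was 0.304, and a gene flat at its ND mean would differ by 0.277. Each of the 3 was highest in CDD replicate 2, which follows from the choice, since the triplet mean was high in that brain. *Fgl2* and *Gpr157* had low levels (means of 2.65 and 2.13 CPM). The genes closest to the mean of *Dcx*, *Tubb3* and *Stmn2* were *Itfg1*, *Abhd17c* and *Rab2a*, at 0.0171, 0.0173 and 0.0185, against a median of 0.136. That mean varied little, and a gene flat at its ND mean would differ by only 0.0459.

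In the wider pathway a small share of genes passed the test. Of 115 listed genes of tubulins, stathmins, microtubule proteins, motors, axon growth, intermediate filaments and their kinases, 114 were tested, and edgeR called 15 of 114 (13.2%, 5 higher and 10 lower in CDD), beside 8.83% of all genes. The median log2 fold change was -0.018, against -0.0038 over all genes.

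Among the tubulins and their partners the called genes were lower. No alpha-tubulin of 4 tested passed, and *Tuba1a*, the main neuronal alpha-tubulin, stood at 4111 ± 185 CPM in CDD and 4155 ± 91.5 CPM in ND (SD, n = 4 each). 1 of 8 other beta- and gamma-tubulins fell: *Tubb2a*, a beta-tubulin of young neurons, from 656 ± 13.5 CPM in ND to 570 ± 47.5 CPM in CDD (log2 fold change -0.20, edgeR adjusted p = 0.0315). 1 of 3 other stathmins fell, *Stmn4*, from 166 ± 8.47 to 142 ± 13.1 CPM (log2 fold change -0.23, edgeR adjusted p = 0.0224). The 3 of 19 other microtubule-associated genes that fell were *Camsap3*, which caps minus ends (log2 fold change -0.17, edgeR adjusted p = 0.0174), *Tppp*, a tubulin-polymerizing protein gene (-0.23, adjusted p = 0.0261), and *Mapre3*, a plus-end binding protein (-0.16, adjusted p = 0.0413). The *Mapre3* call was lost without CDD replicate 2 (edgeR adjusted p = 0.0814), with limma-voom (0.0514) and with the gene length offset (0.0651).

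The 5 called genes that were higher belonged to the severing enzyme, motor and intermediate filament lists. *Fign*, a severing enzyme and the 1 of 15 modifying or severing genes that passed, rose from 25.5 ± 0.94 to 32.0 ± 4.13 CPM (log2 fold change 0.32, edgeR adjusted p = 0.0157). Of 18 kinesin and dynein genes, 2 rose and 1 fell. *Nde1*, a dynein partner of dividing progenitors, measured 52.5, 51.3, 48.2 and 49.9 CPM in CDD and 41.5, 43.9, 39.6 and 39.4 CPM in ND (log2 fold change 0.30, edgeR adjusted p = 0.00287), and *Kif21a* rose by 0.17 on the log2 scale (adjusted p = 0.0337). *Dync1i1*, a neuronal dynein intermediate chain, measured 19.96, 19.9, 27.7 and 18.2 CPM in CDD and 39.7, 31.1, 41.1 and 41.3 CPM in ND, the largest difference among the 15 (log2 fold change -0.83, edgeR adjusted p = 0.0126). All CDD values of *Dync1i1* lay below all ND values.

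Of 9 other intermediate filament genes, the 2 that rose were those of neural progenitors. *Nes*, which encodes nestin, measured 321, 365, 331 and 425 CPM in CDD and 261, 283, 250.9 and 246 CPM in ND (log2 fold change 0.47, edgeR adjusted p = 0.00344). *Vim*, the gene of vimentin, rose from 489 ± 14.2 to 565 ± 33.5 CPM (log2 fold change 0.21, edgeR adjusted p = 0.0183). *Lmna*, a nuclear lamin gene, fell from 21.7 ± 0.35 to 17.6 ± 2.06 CPM (log2 fold change -0.30, edgeR adjusted p = 0.0173). Of 20 axon growth and pan-neuronal genes, 3 fell: *Snap25*, a vesicle fusion protein (log2 fold change -0.23, edgeR adjusted p = 0.0246), *Rtn1* (-0.21, adjusted p = 0.0272) and *Gap43*, a growth cone protein (-0.18, adjusted p = 0.0484). The *Gap43* call was lost with the scaling by relative log expression (edgeR adjusted p = 0.0558) and with the gene length offset (log2 fold change -0.13, adjusted p = 0.0984). None of 6 tubulin folding genes passed (*Tbcd*, 89.0 ± 7.26 CPM in CDD and 86.1 ± 2.37 CPM in ND), nor did any of 12 tau and microtubule kinase genes (*Cdk5r1*, 491 ± 28.5 and 535 ± 7.24 CPM).

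**Figure D5:**
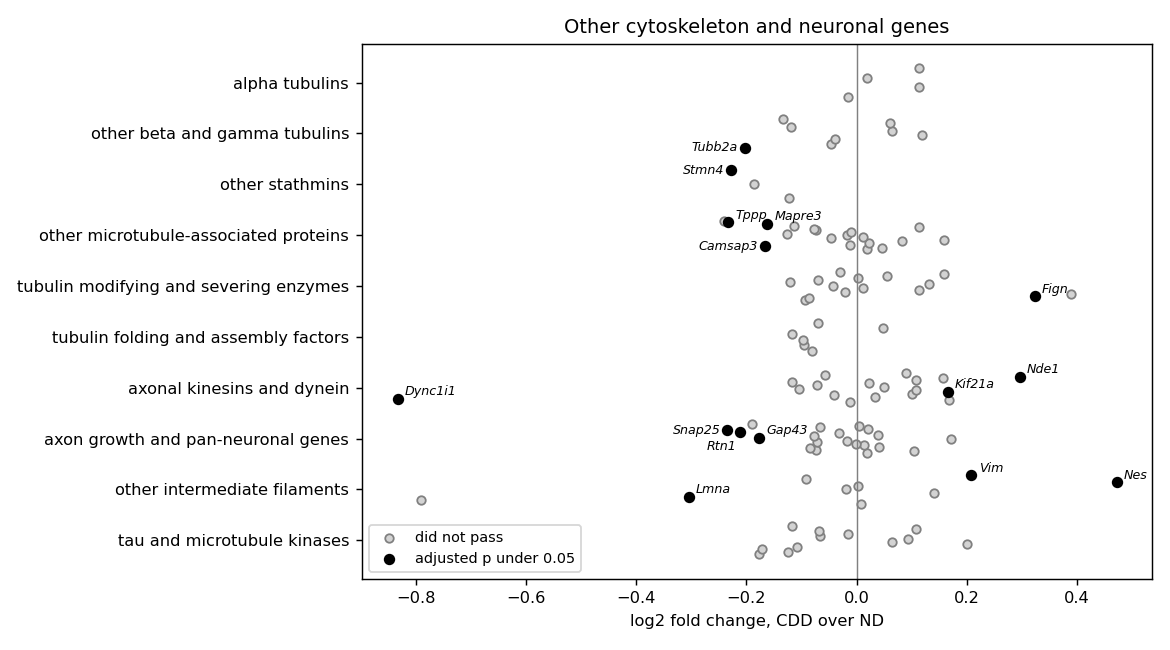
Log2 fold change (CDD over ND) of each tested gene in the pathway lists, 1 row per list, with genes called by edgeR filled and named. The called genes lower in CDD lie mainly in the tubulin, stathmin, microtubule-associated and axon growth rows, and *Nes*, *Vim*, *Nde1*, *Fign* and *Kif21a* lie on the higher side.

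Most of these calls did not hold in every fit that left out 1 brain. *Nde1* and *Nes* were called in all 8 fits that left out 1 brain. Without CDD replicate 4, the log2 fold changes of the 5 higher genes were 0.38 (*Nes*), 0.30 (*Nde1*), 0.26 (*Fign*), 0.20 (*Vim*) and 0.13 (*Kif21a*). With all brains they were 0.47, 0.30, 0.32, 0.21 and 0.17. *Dync1i1* was lost without CDD replicate 4 (log2 fold change -0.76, edgeR adjusted p = 0.0542) and *Fign* without ND replicate 3 (0.31, adjusted p = 0.0738). The other 11 were called in 1 to 5 of the 8 fits (*Gap43* and *Mapre3* in 1, *Kif21a* in 2 and *Tubb2a* in 3). Each of the 11 was lost without ND replicate 1, at an edgeR adjusted p of 0.0573 to 0.163. Each was also lost without ND replicate 3 (0.0638 to 0.194) and without ND replicate 4 (0.0527 to 0.146). Their absolute log2 fold changes in those 3 fits were 0.16 to 0.30, 0.14 to 0.31 and 0.15 to 0.29. In the same 3 fits, 4, 3 and 4 of the 114 pathway genes were called, and 3.50%, 2.40% and 3.13% of all genes.

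Markers of other cells were measured beside these lists. Over all tested genes, edgeR called 4.24% higher and 4.59% lower in CDD. Calls in either direction fell to 3.50%, 2.40% and 3.13% without ND replicate 1, 3 or 4. The marker lists were counted only with all brains and without CDD replicate 2. Of 10 progenitor and cycling genes, 4 were higher and 0 lower in CDD by edgeR, with sums of 1332 to 1515 CPM in CDD and 1195 to 1267 CPM in ND. Of 8 microglia and macrophage genes, 3 were lower, with sums of 67.2 to 75.7 CPM in CDD and 76.9 to 89.8 CPM in ND. Of 6 intermediate progenitor genes 2 were higher and 1 lower (3 and 0 without CDD replicate 2), and of 8 meningeal fibroblast genes 1 was higher and 3 lower (0 and 3 without it). Of 10 erythroid genes 2 were higher, with sums of 764 to 1426 CPM in CDD and 827 to 2995 CPM in ND, of 6 choroid plexus genes 1 was higher, of 5 tested eye genes 1 was higher (0 higher and 1 lower without CDD replicate 2), and of 8 endothelial genes 1 was lower. The part of such cells in the values of *Stmn2*, *Mapt*, *Nes* and the other genes above was not tested.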

How the data were processed

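RNA of 8 whole embryo brains was sequenced from poly-A libraries. Per the submitters' processing notes, the authors used HISAT2 2.0.5, featureCounts 1.5.0-p3 and DESeq2 1.20.0. The genome build and annotation were not given in the sources used here. The deposited table gave, per gene and brain, raw read counts, the authors' size-factor-scaled counts (a signal), FPKM and gene length. It also gave the authors' own log2 fold changes and p-values for this comparison, which were deposited as the study's results and were not used. 0 value columns had no sample.

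Raw counts were scaled by TMM and tested with edgeR 4.0.16 (R 4.3.3; filterByExpr, robust quasi-likelihood fit, diet as the only term). p-values were adjusted by Benjamini-Hochberg over all 19367 genes tested, and an adjusted p under 0.05 was a call. DESeq2 1.42.0 and limma 3.58.1 (voom) were alternatives, as were other scalings and filters, a replicate block, a gene length offset (loess span 0.3) and leaving out each brain. Levels are CPM, and log2 CPM used a prior count of 2. Libraries held 31770217 to 43121170 counts, and no 2 libraries agreed within sampling noise (chi-square per degree of freedom 3.76 to 30.8). The largest value was between CDD replicate 4 and ND replicate 3. The scripts were tested on simulated data.

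The members and gene lists were chosen with earlier results of these data known. All 10 members were named. From each pathway list the 3 called genes with the smallest p were named, or the gene of highest mean CPM where none was called, and 3 genes closest to each group mean. Context genes were named where they bear on a library or member.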

Additional observations from a re-analysis of the deposited data

Results flagged for a closer look

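In 4 of 58 groups of 4 brains examined, 1 brain lay far from the other 3 by Dixon's criterion, where chance gives about 2.9. All 4 were in ND brains. ND replicate 2 was the lowest ND brain for *Stmn2* (9.42 on the log2 CPM scale), *Stmn4* (7.26) and *Dync1i1* (4.96). ND replicate 3 was the highest ND brain for *Camsap3* (6.93 on the log2 CPM scale).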

How the results depend on the processing

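Over all genes, 1710 calls became 477 at an adjusted p under 0.01 and ranged from 471 to 2495 with 1 brain left out (688 without ND replicate 1, 471 without ND replicate 3 and 615 without ND replicate 4). The gene length offset gave 1203 higher and 870 lower, beside 822 and 888. Of the members, 0 were called, but 2 by DESeq2, 1 each by limma-voom, without a filter, with at least 10 counts in every brain, with the length offset and with the replicate block and length offset together, and 0 to 2 with 1 brain left out. Of the pathway genes, 15 became 25 without a filter, 2 at 0.01, and 3 to 20 with 1 brain left out. The split of 5 higher and 10 lower became 7 and 9 with the length offset, and 9 and 9 with the block added. The late minus early difference of 0.18 ranged from -0.0003 to 0.27 with 1 brain left out. Without CDD replicate 2, *Tubb3* turned to -0.0098, *Nefl* to -0.0465 and *Nefh* to -0.1028 (highest values with another brain left out 0.0574, 0.3123 and 0.2455). *Tuba1a* (-0.015) turned to 0.033 with the length offset, 0.0304 with the block added, 0.0019 without CDD replicate 1 and 0.0084 without CDD replicate 3, and was lowest without CDD replicate 2 (-0.0392). The causes were not tested. Of the values for single genes, 402 kept direction and side of the threshold, 11 gained and 56 lost a call, and 7 turned sign.

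The deviations of same-numbered brains correlated at 0.105, -0.133, 0.117 and 0.232. Since 1 pair was negative, the numbers were not taken to pair the samples. The replicate block gave 1812 calls over all genes, 0 members and 17 pathway genes, and CDD replicates 1, 3 and 4 each correlated best with the ND brain of their own number, while CDD replicate 2 did so with ND replicate 4 (0.214). Depth limits *Prph* and *Nefh* most: *Prph* had 97 to 606 counts per brain.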
